A study of Mus musculus with 10 samples.

Results

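Nefl, Nefm, Nefh, Ina and Prph encode the neurofilament subunits and peripherin, the intermediate filament proteins of sensory axons, and their read counts were compared across 10 pools of mouse vagal sensory neurons. The 5 genes were taken by symbol, and they make up 5 of the 24421 rows of the gene count tables. Neurons were picked one by one with a pipette from dissociated ganglia, pooled, and sequenced after amplification of the complementary DNA. Vagal sensory neurons sit in the nodose ganglion, which derives from epibranchial placodes, and in the jugular ganglion, which derives from neural crest. In the mouse both are fused into 1 complex, of which the caudal end was taken as nodose and the rostral end as jugular.

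There were 5 groups of 2 pools. Under the Trpv1 selection the mice were Trpv1-tdTomato animals, made by crossing Trpv1-Cre mice with a ROSA26 tdTomato reporter strain, and red neurons of the nodose and the jugular ganglion formed the Trpv1-positive groups, with 30 cells in each pool. Neurons without tdTomato from the nodose ganglion of the same 2 mice formed the Trpv1-negative group, with 15 cells in each pool. Because the reporter is switched on by Cre and stays on, red cells include any neuron that expressed Trpv1 only earlier in life. Under the capsaicin selection the mice were C57BL/6 without the reporter, and neurons were chosen by their calcium response. Nodose cells responded to α,β-methylene ATP and to capsaicin, in pools of 14 and 15 cells, and jugular cells responded to capsaicin and gave no response to α,β-methylene ATP, in pools of 15 and 16 cells. Each selection was made in its own strain and its libraries were prepared in its own sequencing core, so selection, strain, core and depth cannot be told apart. Only cells of the capsaicin selection were exposed to these agonists before picking, so this exposure cannot be told apart from them either. The labels do not say which animal each pool came from, and p-values therefore measure only the spread between pools.

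Depth was 148452506 to 167704327 counts in the 6 pools of the Trpv1 selection and 17666710 to 30810863 counts in the 4 pools of the capsaicin selection, with 12153 to 13029 and 7889 to 10010 genes counted at least once. Rn45s, the ribosomal RNA precursor, varied with the groups. Its share of the counts was 10.3% and 8.54% in Trpv1-positive nodose neurons, 2.65% to 3.38% in Trpv1-positive jugular and Trpv1-negative neurons, and 0.0143% to 0.137% under the capsaicin selection. Trpv1 itself had 9 and 8 counts in the Trpv1-negative pools and 1693 to 5678 in the capsaicin pools. It had 39291 and 24035 counts in the Trpv1-positive nodose pools and 4143 and 6385 in the Trpv1-positive jugular pools. Neuronal markers summed to between 5769 and 13670 CPM (the usual unit of counts scaled for library size) in each pool. The 5 nodose markers summed to at least 636.3 CPM in every nodose pool and to at most 2.477 CPM in every jugular pool. Glial markers summed to 3652 to 5006 CPM in pools of the Trpv1 selection and to 1983 to 2592 CPM in the others. The largest part was Apoe in the Trpv1 selection, at 2528 to 3814 CPM, and Pmp22 in the capsaicin selection, at 1132 to 1723 CPM. Sox10 was at most 12.57 CPM in any pool, and Mag, which marks myelinating Schwann cells, had no count in any pool. Of the 6 immune markers, 5 had no count in any pool, and the remaining one, Cd68, was at 93.76 CPM in pool 1 of the nodose capsaicin group, at 22.11 CPM in pool 1 of the jugular capsaicin group and at 5.776 CPM or less in the other 8 pools. The 6 fibroblast markers summed to 296.3 and 51.49 CPM in the jugular capsaicin pools, to 47.61 and 0 CPM in the nodose capsaicin pools and to 0.2733 to 38.1 CPM in the Trpv1 selection. The 6 endothelial and pericyte markers summed to at most 39.35 CPM in any pool. Pool 2 of the nodose capsaicin group stood apart, since its 10 highest genes held 22.61% of its counts, against 7.942% to 15.09% in the other 9 pools.

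Neurofilaments are built around the light subunit NEFL, to which the medium subunit NEFM and the heavy subunit NEFH add long side arms that space the filaments. INA, α-internexin, can join the same filaments. PRPH, peripherin, is a type III filament protein of peripheral neurons that can assemble with or without the neurofilament subunits. In sensory ganglia, antibodies to heavy neurofilament are widely used to mark large neurons with myelinated axons, and peripherin to mark small neurons with unmyelinated axons (C-fibers).

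On the mouse build GRCm38 with GENCODE vM21 annotation, Nefl lies on chromosome 14 at 68083863 to 68089095 on the plus strand. Nefm is its neighbour on the minus strand, with its principal transcript at 68119283 to 68124846. A longer Nefm model in the same annotation shares 1108 exon bases with Nefl, or 32.8% of the exon length of Nefl, on the opposite strand. The library kit does not keep strand, so reads from that stretch cannot be assigned by strand. Depending on how such reads were counted, which the sources used here do not say, the levels and shares of Nefl and the ratios over Nefl, which use its full exon length, may be off in either direction. Nefh lies on chromosome 11 at 4938754 to 4948064, Ina on chromosome 19 at 47014698 to 47025327, and Prph on chromosome 15 at 99055174 to 99058978.

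The 250 bases before the RefSeq starts (GRCm38.p6) of Ina and Prph are shown. Windows could be matched for these genes only, so those of Nefl, Nefm and Nefh are not given. Any link between these sequences and the levels was not tested. The capitals mark the letters TATAAA. The windows are chr19:47014431-47014680 for Ina and chr15:99054924-99055173 for Prph, both on the plus strand.
Ina: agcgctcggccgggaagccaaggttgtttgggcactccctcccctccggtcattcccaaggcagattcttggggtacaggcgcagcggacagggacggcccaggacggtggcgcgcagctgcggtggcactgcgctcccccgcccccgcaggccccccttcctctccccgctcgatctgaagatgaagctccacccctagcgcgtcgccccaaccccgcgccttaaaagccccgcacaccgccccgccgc
Prph: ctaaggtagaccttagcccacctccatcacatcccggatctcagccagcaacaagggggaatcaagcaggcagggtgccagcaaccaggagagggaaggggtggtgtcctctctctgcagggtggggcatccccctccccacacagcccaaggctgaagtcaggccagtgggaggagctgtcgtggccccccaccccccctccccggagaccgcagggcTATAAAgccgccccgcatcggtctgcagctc
The Prph window holds TATAAA once, beginning 31 bases before the start, and the Ina window does not hold it on either strand. TATAAA is present in 12.4% of the 32851 mouse promoter windows of this length. The GC box letters GGGCGG occur 2 times in the Ina window and 1 time in the Prph window, on either strand, and in 32.7% of all windows. Guanine and cytosine make up 70.8% of the Ina window and 65.2% of the Prph window, against a median of 52.4%. The letters CCAAT and TGACGTCA are in neither window, and in 33.8% and 1.55% of all windows.

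The first question was how abundant each gene was in each kind of neuron. Levels are given as CPM after scaling of the 10 libraries by DESeq2 size factors, and levels of different genes are compared only per kilobase of exon. Peripherin was the most abundant of the 5 per kilobase and α-internexin the least, and the order Prph, Nefl, Nefm, Nefh, Ina held in all 10 pools. In the Trpv1-positive nodose pools the mean level of Prph was 2360 CPM per kilobase, against 332.8 for Nefl, 157.5 for Nefm, 38.33 for Nefh and 0.0075 for Ina. Together the 5 genes took 0.612% to 1.05% of all counts in the Trpv1 selection and 0.151% to 0.324% in the capsaicin selection.

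**Figure D1:**
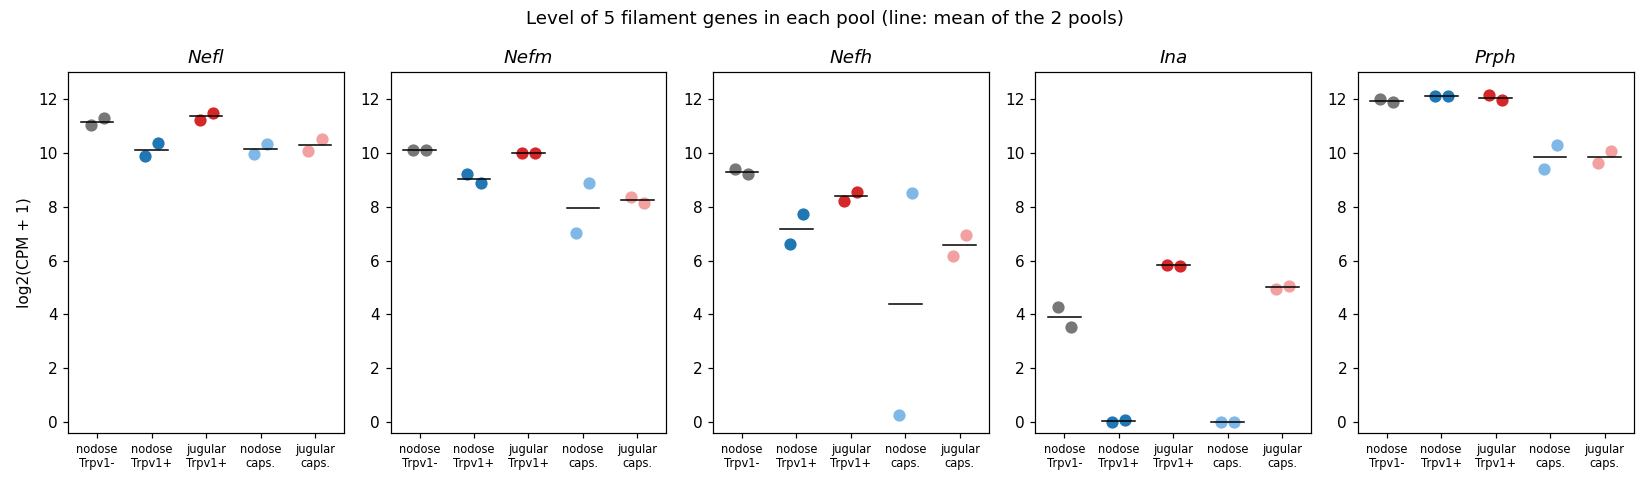
Level of each gene in each pool as log2(CPM + 1), with 2 pools per group and a line at the mean of the 2 log values. Ina is at or near 0 in both nodose groups of C-fiber neurons, and Nefh in pool 1 of the nodose capsaicin group, at 0.2065 CPM, sits far below pool 2 at 365 CPM.

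Nefl, the core subunit, had levels of 2394 and 2862 CPM in the Trpv1-positive jugular pools and of 2065 and 2488 CPM in the Trpv1-negative nodose pools. It had 942.2 and 1308 CPM in the Trpv1-positive nodose pools. Under the capsaicin selection the jugular pools had 1075 and 1449 CPM and the nodose pools 998.9 and 1279 CPM. The 2 highest groups overlapped each other and stood above the other 3 groups, which overlapped among themselves.

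Nefm, a side-arm subunit, had 1097 and 1102 CPM in the Trpv1-negative nodose pools and 1011 and 1009 CPM in the Trpv1-positive jugular pools. It had 586.7 and 463.7 CPM in the Trpv1-positive nodose pools. Its levels were 330.6 and 280.6 CPM in the jugular capsaicin pools and 127.7 and 471.4 CPM in the nodose capsaicin pools. The 3 groups of the Trpv1 selection did not overlap, and the nodose capsaicin pools lay on either side of the jugular ones.

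Nefh, the heavy subunit, was highest in the Trpv1-negative nodose pools, at 665.9 and 592.8 CPM. It had 295.4 and 374.8 CPM in the Trpv1-positive jugular pools and 97.67 and 208.5 CPM in the Trpv1-positive nodose pools. The jugular capsaicin pools had 71.39 and 123.2 CPM. In the nodose capsaicin group it had 4 counts in pool 1 and 5037 counts in pool 2, or 0.2065 and 365 CPM, so that this group overlapped each of the others except the Trpv1-negative group. Every Nefh value for the capsaicin selection below depends on which of these pools is used. Pool 1 was also the pool with Cd68 at 93.76 CPM and fibroblast markers at 47.61 CPM, against 0.1449 and 0 CPM in pool 2, and their part in the Nefh level was not tested.

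Ina had 10466 and 10967 counts in the Trpv1-positive jugular pools, which is 55.83 and 54.88 CPM. It had 619 and 630 counts in the jugular capsaicin pools, or 30.08 and 32.53 CPM, and 3877 and 2077 counts in the Trpv1-negative nodose pools, or 18.56 and 10.73 CPM. It had 0 and 8 counts in the Trpv1-positive nodose pools and no count in either nodose capsaicin pool. A count of 0 allows a level of up to 3 counts, for counting error only. By total depth this is 0.0194 CPM in pool 1 of the Trpv1-positive nodose group. It is 0.134 and 0.0974 CPM in the nodose capsaicin pools, or 0.1861 CPM on average after scaling by size factors. No 2 of the 3 groups with Ina overlapped, and each stood above both nodose C-fiber groups. Fewer neurons with a transcript and less transcript per neuron cannot be told apart in such pools.

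Prph had 4406 and 4387 CPM in the Trpv1-positive nodose pools, 4495 and 3938 CPM in the Trpv1-positive jugular pools and 4076 and 3769 CPM in the Trpv1-negative nodose pools. It had 669.1 and 1247 CPM in the nodose capsaicin pools and 789.8 and 1066 CPM in the jugular capsaicin pools. The Trpv1-positive nodose and jugular pools overlapped, as did the jugular and the Trpv1-negative pools. All 4 capsaicin pools were below all 6 pools of the Trpv1 selection.

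The make-up of the 5 genes within a pool needs no scaling between libraries. Prph held 83.15% and 80.29% of the 5 genes per kilobase in the Trpv1-positive nodose pools. It held 68.63% and 62.65% in the Trpv1-positive jugular pools and 66.29% and 62.41% in the Trpv1-negative nodose pools. In the capsaicin selection it held 48.83% to 52.27%. Nefh held 5.052% and 4.579% in the Trpv1-negative pools, against 0.8598% to 2.781% in the 4 Trpv1-positive pools. The highest Nefh share, 7.136%, was in pool 2 of the nodose capsaicin group and the lowest, 0.007461%, in pool 1 of the same group.

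**Figure D2:**
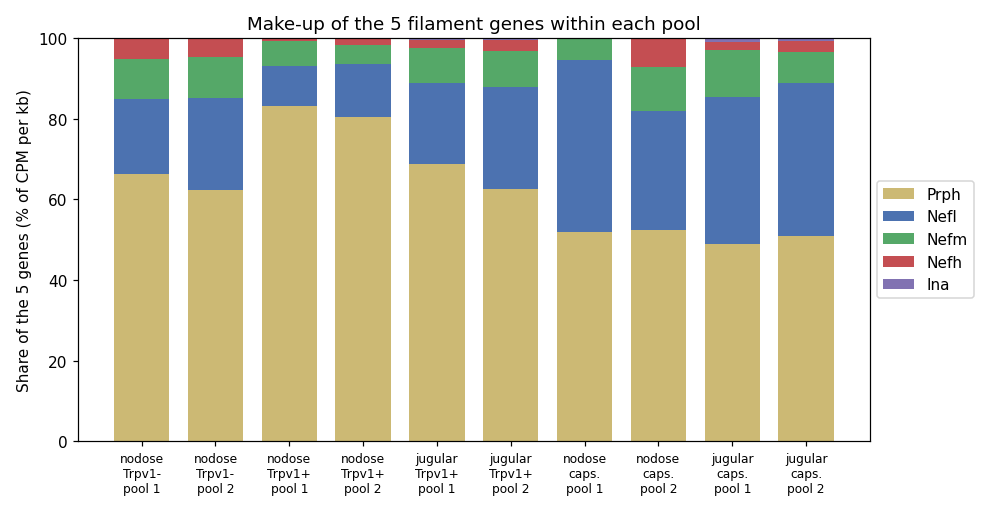
Share of each gene in the sum of the 5 genes, in percent of CPM per kilobase of exon, 1 bar per pool. The Prph part is longest in the Trpv1-positive nodose pools, at 83.15% and 80.29%, and shortest in the capsaicin pools, at 48.83% to 52.27%.

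Trpv1-positive and Trpv1-negative neurons of the nodose ganglion were compared to set C-fiber neurons against a group that should hold more myelinated fibers. Of Nefl, Nefm and Nefh, Nefh differed most, 4.02-fold lower in Trpv1-positive neurons, and Nefl and Nefm were 1.98-fold and 2.06-fold lower. Ina went from a mean of 14.64 CPM in Trpv1-negative neurons to 0 and 8 counts in the Trpv1-positive pools. With the count of 0 set to 3 counts, the means differed by 432.5-fold and the closest pools by 220.9-fold. Prph was close to even, at a mean of 4396 CPM in Trpv1-positive and 3922 CPM in Trpv1-negative neurons. By total depth its order turned, with 4586 against 5149 CPM, while the other 4 genes kept theirs. Rn45s took a higher share of counts in the Trpv1-positive pools, as given above, and with it left out of the counts the log2 fold changes of Nefl, Nefm and Nefh were again -0.98, -1.04 and -2.01.

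None of the 5 genes passed the call rule, which asked that edgeR's quasi-likelihood test give an adjusted p no higher than 0.1, a fold change of at least 2 and at least 10 CPM in both pools of a group. That rule called 6 of 11386 genes tested, or 0.0527%, all of them higher in Trpv1-positive neurons. The log2 fold change was -2.01 for Nefh (SE 0.448, adjusted p = 0.366, edgeR). It was -0.98 for Nefl (SE 0.223) and -1.04 for Nefm (SE 0.214), each with an adjusted p of 0.366 in edgeR. It was 0.19 for Prph (SE 0.124, adjusted p = 0.734, edgeR) and -9.16 for Ina (SE 3.41, adjusted p = 0.422, edgeR). Before adjustment, Nefh, Nefl, Nefm and Ina had p-values of 0.00605, 0.00652, 0.00432 and 0.042 in edgeR, and 6.57% of all genes tested had an edgeR p under 0.05 in that direction. The pools of these 4 genes did not overlap between the groups, as was so, with lower levels in Trpv1-positive neurons, for 22.4% of all genes. The Prph pools did not overlap either, with the higher level in Trpv1-positive neurons, as was so for 18.4%. The Wald test of DESeq2 called Ina (adjusted p = 0.000444) among 318 genes called lower, or 2.25%, and called no other of the 5.

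Genes of axon type were set beside these. Of 15 tested markers of large myelinated sensory neurons, edgeR called none, with a median log2 fold change of -4.86 against 0.0149 for all genes. Of 15 tested genes of the node of Ranvier and axon initial segment it called none, with a median of -1.95. The first list held 18 genes. A filter on low counts keeps genes with counts in only the Trpv1-negative pools, so these medians are descriptions and not tests. DESeq2 called 5 of the first list and 4 of the second, all lower in Trpv1-positive neurons, with Kcna1 and Scn8a counted in both. They are named here after their values were seen. Ntrk3, the receptor for neurotrophin 3, had 0 and 0 CPM in Trpv1-positive against 19.5 and 19.77 CPM in Trpv1-negative neurons. Piezo2, a mechanically gated channel, had 0.0128 and 0.0243 against 13.37 and 10.72 CPM, and P2ry1, a receptor for ADP, had 0.0446 and 0.942 against 85.81 and 100.8 CPM. Kcna1, a juxtaparanodal potassium channel, had 0.0255 and 0.0364 against 57.33 and 31.21 CPM, and Scn8a, the nodal sodium channel, had 0.0829 and 3.75 against 36.24 and 116.4 CPM. Cntn1, a paranodal adhesion protein, had 0.0893 and 0.0607 against 123.6 and 113.6 CPM. Sptbn4, the spectrin of the node, had 0.0128 and 0.0972 against 12.46 and 48.29 CPM. Apart from Scn8a in pool 2, these genes were under 1 CPM in the Trpv1-positive nodose pools, but only called genes are named in this set. The highest genes of both lists were not called and were present there. Sptbn1 had 331.1 and 295.7 CPM, Cntn2 145 and 123.6 CPM, Ntrk2 93.23 and 173.6 CPM and Ldhb 344.2 and 451.5 CPM. Nefl, Nefm and Nefh were also present in these pools.

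Among the other genes of the cytoskeleton, edgeR and DESeq2 called none of 16 tested intermediate filament genes and filament partners, none of 17 microtubule and axon growth genes and none of 13 axonal transport motors. Their median log2 fold changes were 0.18, 0.36 and 0.17. Tubb3, the neuronal β-tubulin, had a log2 fold change of -0.02 (SE 0.138, adjusted p = 0.994, edgeR), and Map1b, a microtubule-associated protein, one of -0.36 (SE 0.156, adjusted p = 0.506, edgeR). Dst, a linker of filaments, and Mapk3, a kinase that acts on neurofilaments, the 2 highest of the filament partners, had -0.06 and 0.47. Klc1 and Dctn2, of kinesin and dynactin, had 0.27 and 0.32. The highest node genes, Sptbn1 and Cntn2, had -0.53 and 1.18, and the highest genes of the large-neuron list, Ntrk2 and Ldhb, had -0.29 and -0.84. Of 14 tested markers of unmyelinated neurons, edgeR called Trpv1, which the selection used, and Calca, the gene for CGRP, at 287.2 and 451.8 against 0.828 and 1.075 CPM, both higher in Trpv1-positive neurons. DESeq2 called 3 of that list higher, these and Trpa1, an irritant-gated channel, at 81.33 and 109.4 against 0.0239 and 0.0155 CPM, where it called 0.658% of all genes higher. It called 1 lower, Sst, the somatostatin gene, at 0.0191 and 0.00607 CPM in Trpv1-positive against 29.56 and 18.9 CPM in Trpv1-negative neurons (adjusted p = 3.616e-08, DESeq2). At an unadjusted edgeR p under 0.05, 3 members were higher and 2 lower. The median of that list was 0.87. P2rx3, an ATP-gated channel, and Ret, a receptor for the GDNF family, the 2 highest of that list, had log2 fold changes of -0.79 and -0.43.

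Trpv1-positive jugular and nodose neurons were compared to set reporter-selected neurons of crest origin against those of placode origin. The level of Trpv1 changed with ganglion, at 22.1 and 31.95 CPM in the jugular and 250.5 and 146 CPM in the nodose pools. Its part in the differences below was not tested. All 3 neurofilament subunits were higher in both jugular pools than in both nodose pools, Nefl by 2.35-fold, Nefh by 2.19-fold and Nefm by 1.93-fold. Ina had a mean of 55.35 CPM in jugular neurons. With the count of 0 set to 3 counts, the means differed by 1635-fold and the closest pools by 1129-fold. Prph had means of 4217 CPM in jugular and 4396 CPM in nodose neurons, a difference smaller than the spread between the jugular pools, and by total depth the order turned, with 4905 against 4586 CPM. With Rn45s left out, Nefl, Nefm and Nefh had log2 fold changes of 1.22, 0.94 and 1.13.

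The call rule took none of the 5 genes here either, and 35 of 10990 genes in all, or 0.318%. The log2 fold change was 1.23 for Nefl (SE 0.216, adjusted p = 0.238, edgeR) and 0.95 for Nefm (SE 0.206, adjusted p = 0.321, edgeR). It was 1.13 for Nefh (SE 0.491, adjusted p = 0.479, edgeR) and 11.11 for Ina (SE 2.95, adjusted p = 0.321, edgeR). For Prph it was -0.05 (SE 0.102, adjusted p = 0.95, edgeR), and leaving out pool 2 of the jugular group turned its sign. Before adjustment, Nefl, Nefm and Ina had edgeR p-values of 0.00206, 0.00523 and 0.0123, against 6.51% of all genes under 0.05 in that direction. The pools of 21.6% of genes were higher in jugular neurons without overlap. DESeq2 called Ina (adjusted p = 7.46e-06) among 321 genes called higher in jugular neurons, or 2.42%, and no other of the 5. This comparison and the one with Trpv1-negative neurons share the 2 Trpv1-positive nodose pools, so their differences are not independent of each other.

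Of the 6 lists, edgeR called members of only the unmyelinated list in this comparison, 3 of 17 tested. Tac1, the substance P precursor gene, had 1065 and 830 CPM in jugular against 0.95 and 0.237 CPM in nodose neurons. Calca had 3617 and 3743 against 287.2 and 451.8 CPM, and Plxnc1, a semaphorin receptor, had 169.2 and 112.2 against 0.0446 and 0.0364 CPM. Of 13 tested markers of large myelinated neurons edgeR called none, with a median log2 fold change of 3.63 against -0.0268 for all genes. DESeq2 called 4 of them higher in jugular neurons, Piezo2, Kcna1, Fam19a1 and P2ry1, and 3 of 15 node genes, Sptbn4, Cntn1 and Kcna1. Piezo2 had 54.63 and 98.91 CPM and Kcna1 143.5 and 52.07 CPM in the jugular pools. The filament partners (17 tested), microtubule genes (17) and motors (13) had medians of 0.14, -0.23 and 0.11, with no call in edgeR and 1 in DESeq2, which called 1.6% of all genes lower in jugular neurons. That gene was Map2, the dendritic microtubule protein, with 0.912 and 0.0651 CPM in jugular against 270 and 105.8 CPM in nodose neurons. The highest uncalled members, Mapk3, Vim, Tubb3, Map1b, Klc1, Dctn2, Sptbn1 and Ldhb, had log2 fold changes between -0.35 and 0.11, while Cntn2 had -2.05 and Thy1 1.34. The medians of the node genes and the unmyelinated markers were 0.68 and 1.76, and DESeq2 called 5 of the unmyelinated markers, all higher in jugular neurons.

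**Figure D3:**
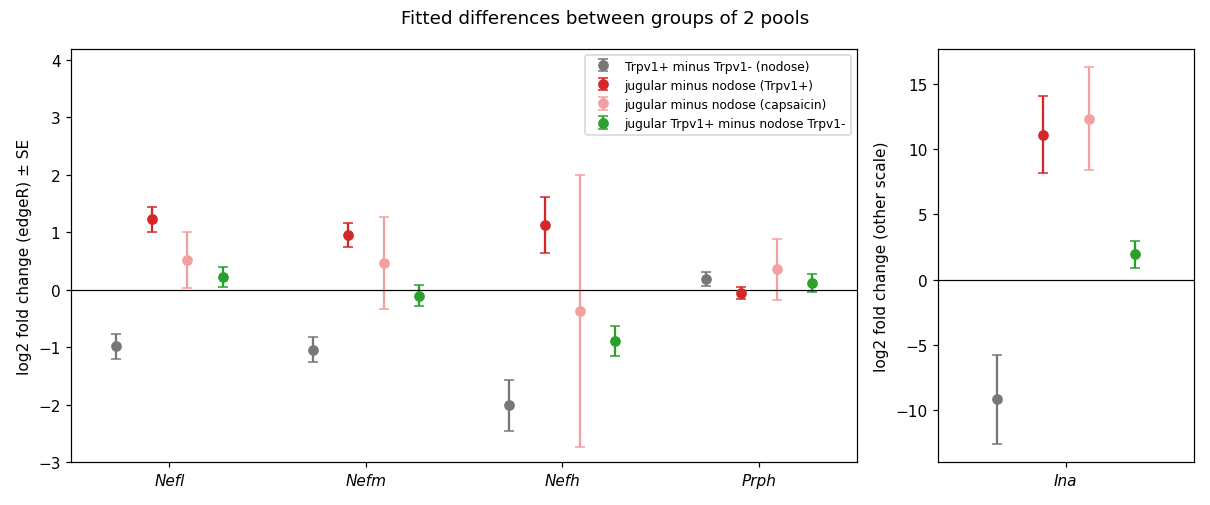
Fitted log2 fold change of each gene with its standard error from edgeR, for 4 comparisons between groups of 2 pools, with Ina on a scale of its own. Nefl, Nefm and Nefh lie below 0 for Trpv1-positive minus Trpv1-negative nodose and above 0 for jugular minus nodose under the Trpv1 selection, while Prph lies within 0.4 of 0 in all 4.

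The capsaicin selection compared the ganglia in other mice. Its nodose cells were chosen for a response to α,β-methylene ATP and its jugular cells for none. Ganglion and this response therefore change together in its 4 pools, also where they enter fits over both selections. Of these 4 pools only the jugular ones had Ina counts, at a mean of 31.31 CPM. With counts of 0 set to 3 counts, the means differed by 168.2-fold and the closest pools by 138.4-fold. The other 4 genes overlapped between the ganglia. The mean of Prph was 927.9 CPM in jugular and 958.1 CPM in nodose neurons, and by total depth 950.7 against 568.4 CPM. The log2 fold change was 12.33 for Ina (SE 3.94, adjusted p = 0.352, edgeR), 0.52 for Nefl (SE 0.486), 0.47 for Nefm (SE 0.796), 0.36 for Prph (SE 0.534) and -0.37 for Nefh (SE 2.37), with an adjusted p of at least 0.948 in edgeR for these last 4. Without pool 1 of the nodose group Nefh came to -1.38 and Nefm to -0.12, and without pool 2 they came to 9.02 and 1.43. Prph came to 0.09 without pool 1 of the nodose group and to 0.06 without pool 2 of the jugular group, and to 0.66 without pool 2 of the nodose group. EdgeR called 0 of 8181 genes in this comparison, with 1150 at an unadjusted p under 0.05, or 14.1%, while DESeq2 called 748, or 6.96%, with Ina among them (adjusted p = 0.00194). The pools of 23.4% of genes were higher in jugular neurons without overlap.

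No member of the 6 lists was called by edgeR under the capsaicin selection, while DESeq2 called 6 unmyelinated markers higher and 1 lower in jugular neurons, 2 node genes and 1 motor higher, and 1 large-neuron marker in each direction. The lists' medians ran from -0.36 for microtubule genes (17 tested) to 5.09 for unmyelinated markers (15 tested). The medians of the other 4 were 0.60 for filament partners (12 tested), 0.55 for motors (13 tested), 0.88 for node genes (11 tested) and 1.74 for large-neuron markers (6 tested), against 0.0182 for all genes. DESeq2 called Piezo2 higher in jugular neurons here too, at 114.2 and 101.5 against 0.0516 and 0.29 CPM. It called Ntrk2, the receptor for brain-derived neurotrophic factor, lower, at 0.0486 and 0.155 against 345.9 and 49.78 CPM. The 2 highest genes of each list had log2 fold changes of -1.25 and -1.02 for Lmna and Gsk3b, -1.34 and -1.80 for Map1b and Gap43, 0.71 and -0.42 for Kif5a and Kif1b, and 0.33 and 0.88 for Sptbn1 and Cntn1. Ldhb had -1.68, Calca 5.09 and Th, the gene for tyrosine hydroxylase, -10.88.

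Over the 8 pools of C-fiber neurons, with selection as a term, Ina was the only one of the 5 genes whose 4 jugular and 4 nodose pools did not overlap, as was so for 3.24% of genes higher in jugular neurons. Its log2 fold change was 11.82 (SE 2.66, adjusted p = 0.129, edgeR), above the threshold of 0.1. Without the filter on low counts the same test gave an adjusted p of 0.0533 in edgeR, and DESeq2, which called 5.91% of all genes higher in jugular neurons, gave 2.13e-12. Over the 13 alternatives of this comparison the adjusted p of Ina ran from 2.13e-12 to 0.365 and its log2 fold change from 11.25 to 14.95. Nefl had 0.83 (SE 0.233, adjusted p = 0.28, edgeR), Nefm 0.66 (SE 0.379, adjusted p = 0.638, edgeR), Nefh 0.33 (SE 1.25) and Prph 0.11 (SE 0.201). The rule called 69 of 11959 genes, or 0.577%. Among the listed genes, edgeR called Piezo2, Tac1, Prdm12, Plxnc1 and Mrgprd, all higher in jugular neurons, that is 1 of 15 large-neuron markers and 4 of 17 unmyelinated markers. The median log2 fold changes were 2.56 and 2.69 for these 2 lists and 0.41, -0.17, 0.11 and 0.37 for filament partners, microtubule genes, motors and node genes, against 0.177 for all genes. The highest genes that edgeR did not call included Map1b at -0.90, Gsk3b at -0.65, Mapk3 at 0.35 and Tubb3 at 0.17. Among them were also Kif5a at -0.17, Klc1 at 0.12, Sptbn1 at 0.02 and Ldhb at -0.83. Cntn1 at 5.62, Ntrk2 at -6.78 and Calca at 4.17 were not called by edgeR either. DESeq2 did call Cntn1, Ntrk2 and Calca, with adjusted p-values of 0.00869, 8.49e-05 and 0.00589. With DESeq2 size factors the median of all genes came to 0.0439, and the value of Prph to -0.07.

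Whether the ganglion difference itself differed between the selections was tested by an interaction term. EdgeR called 0 of 11959 genes, with 1233 at an unadjusted p under 0.05, or 10.3%, and DESeq2 called 1144, or 8.69%. For Nefl the jugular minus nodose log2 fold change under the capsaicin selection, less that under the Trpv1 selection, was -0.65 (SE 0.441, adjusted p = 0.653, edgeR), and the other 4 genes had adjusted p-values of 0.803 to 1 in edgeR. The SEs of these differences were 0.404 to 4.13 on the log2 scale, and no difference between the selections was detectable for any of the 5 genes with this number of pools.

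Trpv1-positive jugular and Trpv1-negative nodose neurons were also set side by side, with ganglion and Trpv1 class changing together. Nefl, Nefm and Prph were within 1.18-fold of each other, at log2 fold changes of 0.23 (SE 0.174), -0.10 (SE 0.183) and 0.13 (SE 0.155). Nefh was 1.86-fold lower in the jugular neurons, at -0.89 (SE 0.259, adjusted p = 0.288, edgeR, unadjusted p = 0.016), where 7.35% of all genes had an unadjusted p under 0.05 in that direction. Ina was higher in both jugular pools, at 1.93 (SE 1.05, adjusted p = 0.58, edgeR). The rule called 26 of 11506 genes, or 0.226%, and none of the 5. The pools did not overlap for Nefm and Nefh, both lower in jugular neurons, and for Ina, as was so for 23.4% of genes that were lower and 20.7% that were higher. EdgeR called 1 of 17 microtubule genes, Stmn1, a tubulin-binding protein (log2 fold change 2.25, adjusted p = 0.0489), and 4 of 17 unmyelinated markers, Calca, Tac1, Prdm12 and Mrgprd, all higher in jugular neurons. DESeq2 called 9 of the unmyelinated markers, all higher, where it called 1.82% of all genes higher. In the other lists it called Stmn1 and Piezo2 higher and Nes, Map2 and Ntrk2 lower in jugular neurons. It called 664 genes in either direction, 258 of them higher, of 14162 with an adjusted p. The edgeR log2 fold changes were 2.69 for Piezo2, -2.16 for Nes, -7.31 for Map2 and -3.48 for Ntrk2. EdgeR called none of 17 filament partners, 13 motors, 15 node genes or 17 large-neuron markers, whose medians were 0.08, 0.27, -0.51 and -0.68, and the medians of the microtubule genes and unmyelinated markers were -0.10 and 4.12. Of the highest genes, Dst, Mapk3, Tubb3, Map1b, Klc1, Dctn2, Sptbn1, Cntn1, Ldhb and Thy1 had log2 fold changes between -0.75 and 0.58.

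Ratios within a pool compared the subunits without scaling between libraries. Nefh over Nefl, per kilobase, was 0.2729 and 0.2016 in the Trpv1-negative pools and 0.08772 to 0.1349 in the 4 Trpv1-positive pools of both ganglia, with no overlap. The difference of the mean log2 ratios, Trpv1-positive minus Trpv1-negative, was -1.12, with a p of 0.0667 in a two-sided exact permutation test, the smallest that 4 against 2 pools allow, and an adjusted p of 0.267 over the 4 ratios. Nefh over Prph was 0.07621 and 0.07337 in the Trpv1-negative and 0.01034 to 0.04439 in the Trpv1-positive pools (log2 difference -1.66, exact permutation p = 0.133, adjusted 0.267). Nefm over Nefl, at 0.5387 and 0.4489 against 0.3574 to 0.6313, overlapped (log2 difference -0.19, exact permutation p = 0.6). The sum of Nefl, Nefm and Nefh over Prph was 0.5059 and 0.6007 in Trpv1-negative pools, and overlapped with the Trpv1-positive pools (log2 difference -0.70, exact permutation p = 0.2), as the jugular pools had 0.45 and 0.5881 and the nodose pools 0.2026 and 0.2455.

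Between ganglia, the sum of the 3 neurofilament subunits over Prph was higher in jugular neurons within each selection. Under the capsaicin selection it was 1.026 and 0.9503 in jugular and 0.9296 and 0.913 in nodose pools, a narrower gap than under the Trpv1 selection, a difference that was not tested. Over both selections the log2 difference was 0.65, with an exact permutation p of 0.0556, the smallest that the 36 arrangements of pools within selections allow, and an adjusted p of 0.222. Nefh over Prph, Nefh over Nefl and Nefm over Nefl had exact permutation p-values of 0.444, 0.889 and 0.889. The remaining ratio, Ina over Nefl, could not be computed where Ina was 0. It was 0.02 to 0.0292 in the 4 jugular pools and 0.009373 and 0.0045 in the Trpv1-negative nodose pools.

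**Figure D4:**
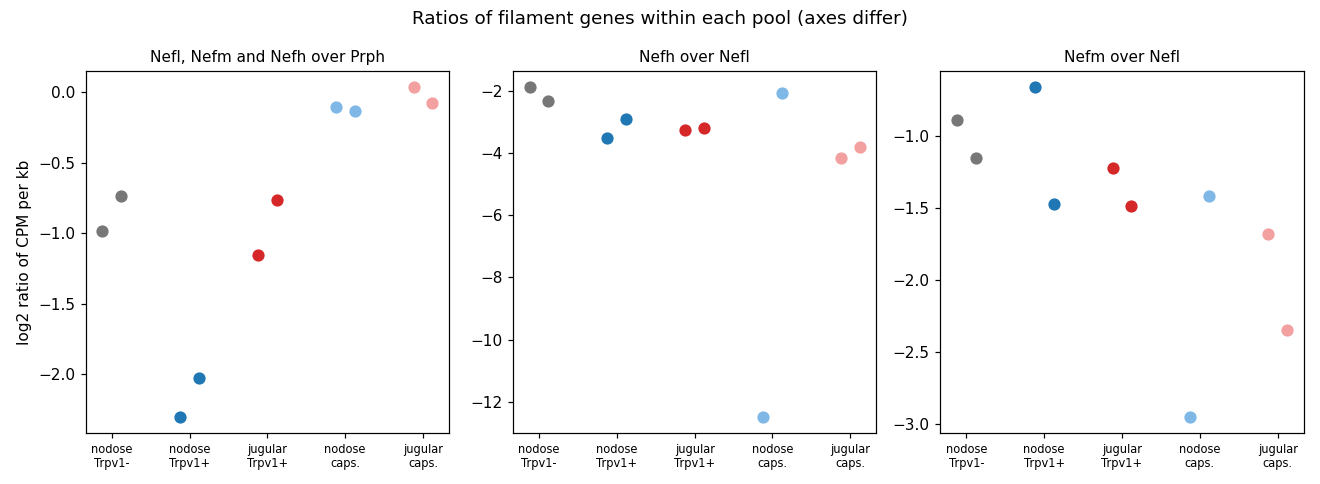
Log2 ratios of CPM per kilobase within each pool, for 3 of the ratios, with 2 pools per group and a separate axis for each ratio. Neurofilament subunits over Prph are lowest in the Trpv1-positive nodose pools, at ratios of 0.2026 and 0.2455, and Nefh over Nefl in pool 1 of the nodose capsaicin group falls to 0.000175.

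Of the 5 genes, Prph differed most between the selections. With ganglion as a term, Prph had a log2 fold change of -2.76, lower under the capsaicin selection (SE 0.215, adjusted p = 0.0001211, edgeR), Nefm had -1.86 (adjusted p = 0.0222, edgeR) and Nefl -1.07 (adjusted p = 0.0283, edgeR), and these 3 were called. The rule called 698 of 11959 genes, or 5.84%, with 212 higher (1.77%) and 486 lower (4.06%) under the capsaicin selection. The median of all genes was itself -1.04 under this scaling and -0.51 with DESeq2 size factors, where 288 genes were called higher and 271 lower. Relative to that median, Prph was at -1.72 with the main scaling and -1.68 with size factors. Of all genes tested, 31.99% had a lower log2 fold change than Prph with the main scaling, and 32.29% with size factors. In the same order, Nefm was at -0.83 and -0.76 relative to the median and Nefl at -0.03 and -0.01. Nefh was at -0.35 and -0.26, and Ina at -0.89 and -1.02. The 4 capsaicin and 4 Trpv1-positive pools did not overlap for Prph, as was so, with lower levels under the capsaicin selection, for 13.3% of all genes. With size factors Prph alone of the 5 was called, and it was called under all 13 alternatives, with an adjusted p no higher than 0.00123 in edgeR or DESeq2, where DESeq2 called 10.3% of all genes lower. Within the capsaicin libraries the genes used for scaling matter most in pool 2 of the nodose group, where Prph was 1247 CPM by size factors and 558.6 CPM by total depth. Whether strain, core, depth, the choice of cells or their exposure to agonists before picking goes with the lower Prph level cannot be told apart.

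Genes were then ranked by how closely their log2(CPM + 1), less the mean of their selection, followed each of the 5 over the 10 pools, among 12957 genes. These correlations are descriptions over pools that share libraries and groups. For Ina the 3 closest were Piezo2 (r = 0.988), Slc2a6, a glucose transporter family member (r = 0.984), and Ppm1j, a protein phosphatase (r = 0.979). Piezo2 was at 10.72 to 114.2 CPM in the 6 pools with Ina and at 0.0128 to 0.29 CPM in the 4 nodose C-fiber pools. Ppm1j was at 419.3 and 336.2 CPM in the Trpv1-positive jugular pools and at 14.24 and 17.44 CPM in the Trpv1-negative nodose pools, a wider step than that of Ina. Slc2a6 was at 39.55 and 62.86 CPM and at 40.09 and 15.94 CPM in the same pools.

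**Figure D5:**
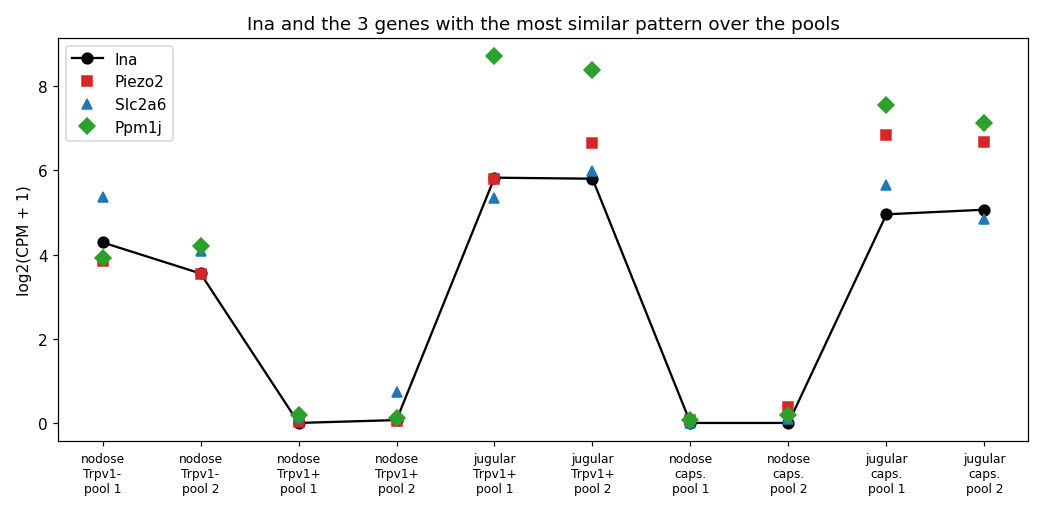
Level of Ina (black, joined by a line to guide the eye) and of Piezo2, Slc2a6 and Ppm1j in each of the 10 pools, as log2(CPM + 1). All 4 genes are under 1 CPM in the 4 nodose C-fiber pools and above 10 CPM in the 6 jugular and Trpv1-negative pools.

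For Nefl the closest were Gtpbp6 (r = 0.974), Kank4 (r = 0.94) and 1700020I14Rik (r = 0.932), and for Nefm 2810025M15Rik (r = 0.955), Ccdc90b (r = 0.949) and Lta4h (r = 0.948). For Nefh they were Asah1 (r = 0.976), Atrx (r = 0.975) and Anapc16 (r = 0.968), each of which, like Nefh, was lowest in pool 1 and highest in pool 2 of the nodose capsaicin group among the 4 capsaicin pools. For Prph they were Pigyl (r = 0.94), Cdr2 (r = 0.937) and Enox1 (r = 0.931). Between the 5 genes themselves r was 0.858 for Nefm with Nefh, 0.81 for Nefl with Ina and 0.623 for Nefl with Nefm, and it was -0.04 for Nefl with Prph.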

How the data were processed

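Messenger RNA of 10 pools of picked neurons was amplified with the SMARTer Ultra Low Input kit and sequenced as paired reads. The authors aligned reads to mm10 with TopHat2 2.0.9 and Bowtie2 2.1.0.0 and deposited raw counts per gene from HTSeq, with 1 table per pool. The annotation and strand setting used for counting are not given in the sources used here. Reads without molecular identifiers are not independent molecules, so counting limits cover counting error only.

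From the deposited counts, each comparison was fitted with edgeR 4.0.16 (R 4.3.3): filterByExpr, TMM scaling, quasi-likelihood test, Benjamini-Hochberg adjustment over all genes tested. The filter keeps a gene with counts in the pools of a single group. The tested members of a list, and so its median, change between comparisons. The study's thresholds were kept (adjusted p of at most 0.1, 2-fold, 10 CPM in both pools of a group), but the study used DESeq2, here version 1.42.0 without shrinkage, which served as an alternative. SE is the log2 fold change divided by the square root of F. Printed CPM are counts divided by DESeq2 size factors over the 10 pools. Ratios used counts per kilobase of principal transcript. With 2 pools against 2, an exact permutation test cannot go below 0.33. Scripts were tested on simulated data.

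The 5 genes, 6 lists and tests were chosen with earlier results of these data known. Named genes were the 5 in every pool, list members called or among the 2 highest of a list (not given for the interaction), and the 3 genes with the highest Pearson r with each. Whether replicate numbers pair pools by animal is not given. Deviations of same-numbered pools correlated at -0.0101 to 0.0164, which cannot decide whether such pools share an animal. No columns of samples outside the series were used, and none of the authors' comparisons. Calls in the node and unmyelinated lists between the selections are not reported here.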

Additional observations from a re-analysis of the deposited data

How the results depend on the processing

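Of 395 alternative values for the 5 genes in the 7 comparisons, 367 kept direction and side of the threshold, 11 lost a call, 5 gained one and 12 changed sign, and the cause was not tested. DESeq2 called 411, 534, 748, 664, 1186, 1144 and 2331 genes in the order Trpv1-positive minus negative nodose, jugular minus nodose (Trpv1-positive), the same (capsaicin), jugular minus Trpv1-negative, both selections, interaction, and capsaicin minus Trpv1 selection, against 6, 35, 0, 26, 69, 0 and 698. Without the filter on low counts the first 6 came to 10, 59, 122, 47, 222 and 95. Fits over all 6 pools of the Trpv1 selection called 15 and 71 in the first and second, and a fit over all 10 pools 111 in the third. The replicate block, whose numbers are not known to pair pools, gave 1, 13, 20, 2 and 41 in the first 5, and turned Nefh to 3.65 (capsaicin) and 2.42 (interaction). Leaving out 1 pool gave 0 to 0, 0 to 0, 0 to 29, 1 to 2, 38 to 89, 0 to 195 and 415 to 742 calls. Leaving out 1 pool, values that crossed 0 ran from -0.13 to 0.050 for Prph in the second comparison and from -0.042 to 0.21 over both selections, from -0.12 to 1.43 for Nefm and -1.38 to 9.02 for Nefh under capsaicin, and from -1.002 to 0.55 for Nefm, -2.46 to 7.99 for Nefh and -1.08 to 4.15 for Ina in the interaction. Over both selections Prph had -0.072 with DESeq2 and -0.073 with its size factors. Of 72 ratio alternatives 66 kept direction. Leaving out 1 pool, jugular minus nodose ran from -0.12 to 4.83 for Nefh over Prph and from -0.97 to 4.25 for Nefh over Nefl, both lowest without pool 1 and highest without pool 2 of the nodose capsaicin group, and from -0.44 to 0.32 for Nefm over Nefl. In the capsaicin minus Trpv1 selection, Nefl lost its call under 7 alternatives and Nefm under 4. In the capsaicin selection 1 count is worth more CPM, so a count of 0 for Ina allows a higher level there. Nefh had 4 and 5037 counts in nodose capsaicin pools with depths of 22411377 and 30810863 counts. The cause of that gap was not tested.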

Other observations

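Other cytoskeletal genes in the capsaicin minus Trpv1 selection comparison were called in both directions. EdgeR called 1 of 17 filament partners higher and 2 lower, 1 of 17 microtubule genes higher and 3 lower, 3 of 13 axonal transport motors lower and none of 15 large-neuron markers under the capsaicin selection. Of all genes it called 1.77% higher and 4.06% lower, and with DESeq2 size factors the split of calls turned to 288 higher and 271 lower. The median log2 fold changes of these 4 lists were -1.64, -0.86, -0.64 and -1.93, and those of the node genes and unmyelinated markers were -1.88 and -0.52, against -1.04 for all genes. Of these 4 lists, Gsk3b and Map1b were the genes called higher, at log2 fold changes of 5.53 and 2.86. Those called lower were Vim (-1.96), Mapk3 (-1.64), Tuba1a (-3.63), Tubb2a (-2.57), Stmn3 (-1.96), Klc1 (-2.22), Dctn1 (-3.25) and Dctn2 (-2.30). Of the highest genes that edgeR did not call, Tubb3, Kif5a, Sptbn1 and Ldhb had -0.86, -0.08, 1.33 and -0.85. Cntn1 and Ntrk2 had 6.19 and -3.57, and Calca and Tac1 had -1.98 and -0.48. In the interaction the 6 lists had no call in edgeR and medians of 0.87, -0.29, 0.23, 0.56, -1.73 and 0.09, against 0.439 for all genes.

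Over the 6 pools of the Trpv1 selection alone, the genes closest to each of the 5 were others, except that Gtpbp6 stayed among the closest 3 for Nefl. For Ina they were Scrt2 (r = 0.998), Slc39a13 (r = 0.994) and 1700020I14Rik (r = 0.994), and for Prph Fth1, the ferritin heavy chain (r = 0.991), Ifi27 (r = 0.985) and Gm12253 (r = 0.985). Scrt2 and Slc39a13 had 0 CPM in both jugular capsaicin pools, where Ina had 30.08 and 32.53 CPM. Over these 6 pools r was -0.47, -0.56 and -0.63 for Prph with Nefl, Nefm and Nefh, and over the 10 pools it was -0.04, 0.33 and 0.64.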
